A study of Mus musculus with 8 samples.

Results

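The genes described here encode the nuclear subunits of oxidative phosphorylation, the mitochondrial system that oxidises NADH and succinate and uses the energy to make ATP. They were chosen by symbol, as protein-coding mouse genes named Ndufa, Ndufb, Ndufc, Ndufs or Ndufv (complex I), Sdha to Sdhd (complex II), Uqcr (complex III), Cox4 to Cox8 (complex IV) and Atp5 (complex V). The annotation holds 86 such genes, with 38, 4, 8, 18 and 18 in complexes I to V. Of 23634 genes in one deposited table and 21201 in the other, 81 members were listed in each, and 78 of them had an adjusted p-value in each table and in both. Those 78 comprise 37, 4, 8, 12 and 17 members of complexes I to V. Cox4i2, Cox7b2 and Cox8b were listed at a few reads without an adjusted p. Ndufa13, Cox4i1, Cox6a2, Cox8c and a read-through locus named Atp5o were not analysed here, nor were the subunits encoded by mitochondrial DNA.

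The series holds 8 liver RNA libraries of Cpeb4 knockout (KO) and wild-type (WT) mice, in 4 groups of 2, with both genotypes once as RNA of the purified endoplasmic reticulum (ER) and once as RNA of the total liver. The protein made from Cpeb4 binds cytoplasmic polyadenylation elements and acts on the poly(A) tails and translation of its target mRNAs. The labels give overnight fasting for the ER preparations, and give no strain, sex, age or type of knockout allele, nor do they say whether a group's libraries came from separate mice. The title of the series names hepatic steatosis, and the tables address differences in transcript level between knockout and wild type.

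The values come from the authors' own genotype comparison, deposited as a larger table (23634 genes) and a smaller table (21201 genes). Neither names its RNA preparation, and neither was assigned to ER or total liver here. Each gene has a mean count over 4 libraries, divided by size factors that correct for sequencing depth, and a moderated log2 fold change, which the authors' method draws towards 0, with a standard error (SE). Because the means are printed to 15 digits, the whole reads behind them could be recovered for single libraries. The counts were unique for 99.6% of the genes tried in the larger table, with 99.7% in the smaller. The libraries on the knockout side are called KO a and KO b, and those on the wild-type side WT a and WT b, with the deeper library of each side as a. None was tied to a named sample, and the letters do not link the tables.

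Cpeb4 shows the sides of the comparison. In the larger table its normalised read counts were 506 and 579.9 in KO a and KO b, against 1511 and 1657 in WT a and WT b. The smaller table had 193 and 225 in the knockout libraries and 689 and 634 in the wild-type libraries. The sign of the comparison was itself read from Cpeb4, which had the smallest p of each table, so the direction is no independent check. That both libraries of a side lay together in each table was not used for that reading. Size factors were 1.24 and 0.904 for KO a and KO b and 1.26 and 0.717 for WT a and WT b in the larger table, and 1.64, 0.839, 0.870 and 0.839 in the smaller. The mean counts of all genes summed to 37351703 in the larger table and to 36848665 in the smaller.

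Marker genes matched liver. All 10 hepatocyte markers were listed in each deposited table and summed to 66283 CPM in the larger and 34026 CPM in the smaller, where CPM is the mean count scaled to a common total for each table. Kupffer cell markers (8 of 8 tested) summed to 148 and 97.7 CPM, erythroid markers to 314 and 383, and endothelial and stellate markers to 91.1 and 49.3. Striated muscle and brown fat are rich in mitochondria. Muscle markers, of which 7 and 6 of 8 were listed, summed to 2.58 and 4.17 CPM, and brown fat markers, of which 5 and 6 of 6 were listed, to 87.7 and 46.6 CPM. Among the brown fat markers, Ucp1, which defines the tissue, had mean counts of 2.60 and 4.91 in the authors' deposited tables, and Elovl3, a fatty acid elongase that liver also makes, had 3236 and 1689. Of all these markers, 2 passed the authors' Wald test. Elovl3 fell in the larger table (log2 fold change -0.34 ± 0.09, adjusted p = 0.0485) and was at -0.22 ± 0.11 in the smaller (adjusted p = 0.999), and Tat, the hepatocyte enzyme tyrosine aminotransferase, rose in both (0.70 ± 0.11 and 0.72 ± 0.12, adjusted p = 4.71e-07 and 5.31e-06), per the authors' deposited tables.

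Electrons enter the chain at complex I from NADH and at complex II from succinate. They pass by ubiquinone to complex III and by cytochrome c to complex IV, which reduces oxygen. Complexes I, III and IV pump protons across the inner mitochondrial membrane, and complex V, the ATP synthase, lets them flow back to make ATP. In liver this ATP pays for glucose production, urea synthesis and lipid handling, and the oxidation of fatty acids feeds the chain during fasting. Mitochondrial DNA encodes the hydrophobic cores of complexes I, III, IV and V, and nuclear genes encode the other subunits, which are translated in the cytosol and imported.

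Promoters of these genes are textbook targets of the transcription factors NRF1, GABP (of the ETS family) and YY1, and RefSeq windows of GRCm38.p6 from 250 bases before to 50 bases after the start were matched for 67 of the 85 member symbols. Short core motifs were searched on both strands. No motif contains another, the letters were chosen after other results of these data were seen, and longer forms give other counts. The NRF1 half-site TGCGCA occurred in 17 of the 67 windows (25.4%), against 8.79% of 27025 gene windows. The ETS motif CCGGAAG occurred in 23.9% of member windows and 9.93% of all windows, and the YY1 core AAGATGG in 14.9% and 7.28%. These matches describe sequence and not binding. A pair of windows is shown, that of Ndufa12, whose log2 fold change was the highest of complex I in both tables, and that of Sdha, whose counts were lower in both knockout libraries than in both wild-type libraries in both tables. The Ndufa12 window lies at chr10:94198785-94199084 on the plus strand and held no match to these letters. The Sdha window lies at chr13:74350191-74350490 on the minus strand and held 2 NRF1 half-sites, in capitals below, which begin 56 and 11 bases before the start. Both read 5′ to 3′ in the direction of transcription.
Ndufa12: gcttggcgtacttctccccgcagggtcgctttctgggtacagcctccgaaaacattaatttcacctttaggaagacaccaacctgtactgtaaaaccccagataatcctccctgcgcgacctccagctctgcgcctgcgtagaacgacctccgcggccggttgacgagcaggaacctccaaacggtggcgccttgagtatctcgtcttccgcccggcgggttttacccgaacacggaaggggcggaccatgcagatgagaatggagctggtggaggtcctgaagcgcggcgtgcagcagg
Sdha: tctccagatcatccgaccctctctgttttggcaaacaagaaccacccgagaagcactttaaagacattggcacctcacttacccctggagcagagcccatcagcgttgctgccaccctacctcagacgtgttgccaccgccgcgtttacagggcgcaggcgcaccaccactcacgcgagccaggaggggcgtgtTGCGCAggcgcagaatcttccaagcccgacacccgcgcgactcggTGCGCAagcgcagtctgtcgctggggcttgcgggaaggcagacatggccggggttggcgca

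Subunit fold changes lay mostly a little above 0 in the larger table and on both sides of 0 in the smaller, and no single subunit passed the authors' test. In the larger table, 74 of 78 members had a log2 fold change above 0, KO over WT, against 49.6% of all 14180 tested genes, with a member median of 0.07 and a median of -0.00 over all genes (the authors' deposited table). In the smaller table, 42 of 78 were above 0, against 50.3% of 11661 genes, with medians of 0.00 and 0.00 (the authors' deposited table). No member passed an adjusted p of 0.05 in the authors' DESeq2 Wald test in either deposited table, against 0.296% of all tested genes in the larger and 0.266% in the smaller. At an unadjusted p under 0.05 there was 1 member in each table, Ndufa12 in the larger (p = 0.0409) and Atp5s in the smaller (p = 0.0362), against 3.62% and 4.11% of all genes, per the authors' deposited tables. The fold change was larger than its own SE for 26 of 78 members in the larger deposited table, against 2971 of 14180 genes, and for 10 of 78 in the smaller, against 2848 of 11661 genes. In bulk tissue, fewer cells of a type and less RNA per cell cannot be told apart.

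**Figure D1:**
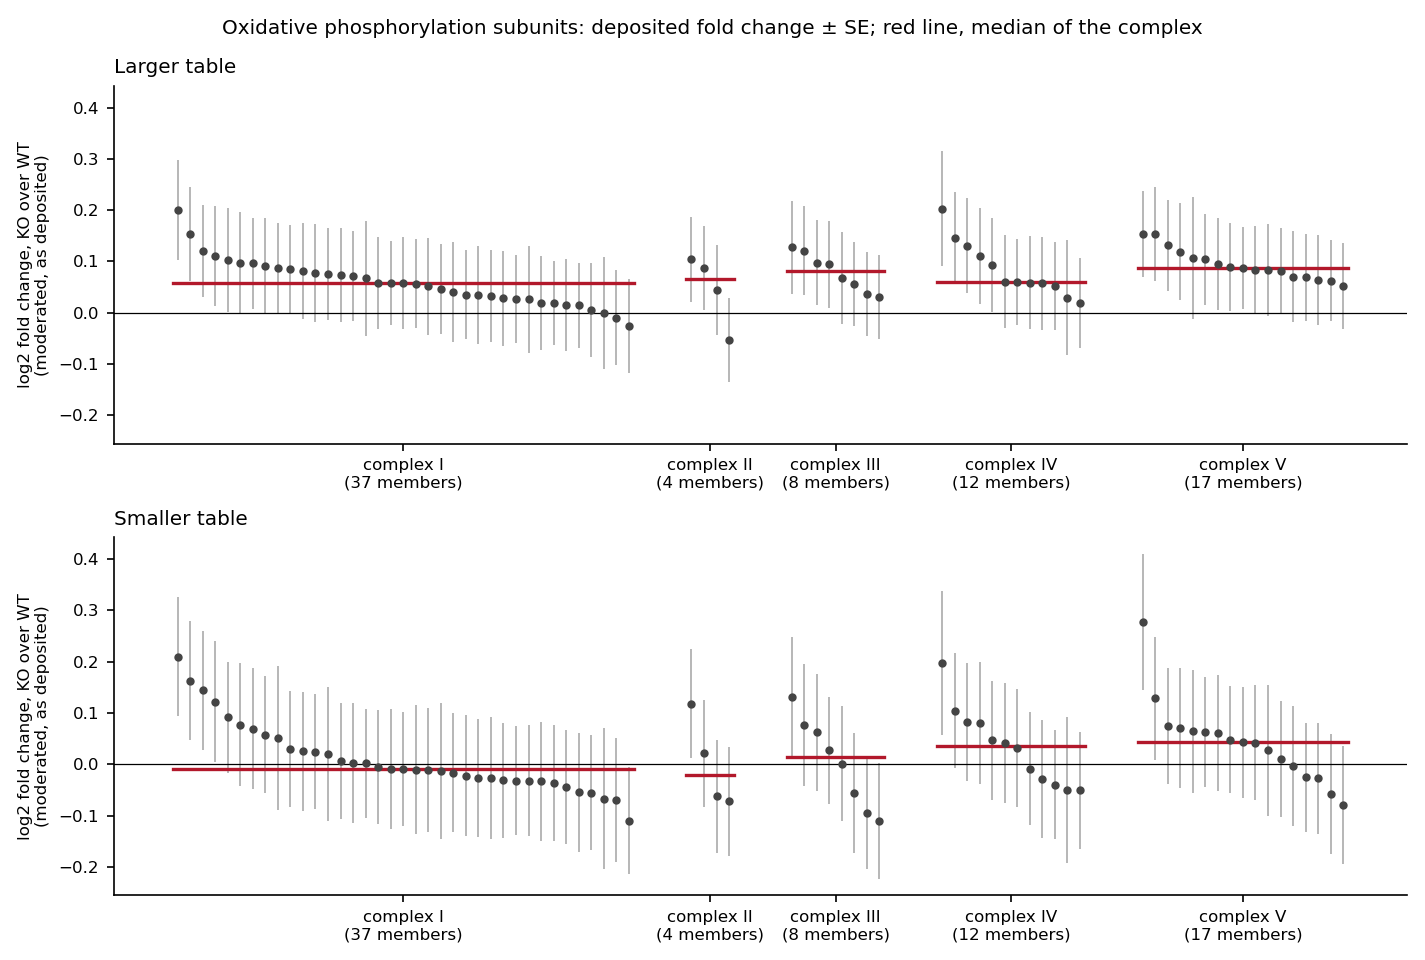
Deposited log2 fold change, KO over WT, of each tested member (points) with its SE (grey bars), ordered within complexes I to V, in the larger table (above) and the smaller table (below). Red lines are the median of the complex: 0.06, 0.07, 0.08, 0.06 and 0.09 in the larger table, with -0.01, -0.02, 0.01, 0.04 and 0.04 in the smaller.

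All 5 complexes had medians above 0 in the larger of the authors' deposited tables, between 0.06 and 0.09. There, 34 of 37 members of complex I, 3 of 4 of complex II, 8 of 8 of complex III, 12 of 12 of complex IV and 17 of 17 of complex V were above 0. In the deposited smaller table the medians ran from -0.02 in complex II to 0.04 in complexes IV and V, with 16 of 37, 2 of 4, 5 of 8, 7 of 12 and 12 of 17 members above 0. The median SE of single members was 0.09 in the larger table, with 0.11 in the smaller, and differences between complexes were not tested.

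The library counts show where the larger table's direction lies. Both knockout libraries were above both wild-type libraries for 35 of the 76 tested members with unique counts in the larger table, against 18.1% of 13627 genes with unique counts, and both were below for 1 member, Sdha, against 19.5%. In the smaller table, both were above for 7 of 72 members, against 18.5% of 11114 genes, and below for 3, against 20.4%. In both tables KO a stood apart from KO b for these genes. KO a was the highest of the 4 libraries for 70 of 76 members in the larger table, against 29.9% of all genes, and for 59 of 72 in the smaller, against 25.8%. Set against each member's own log2 mean over the 4 libraries, the median member of the larger table lay at 0.10 in KO a, -0.02 in KO b, -0.05 in WT a and -0.03 in WT b. That of the smaller table lay at 0.14 in KO a, -0.13 in KO b, -0.03 in WT a and 0.02 in WT b. An offset of 0.10 on this scale is about 7.51% (KO a of the larger table), and 0.14 is about 10.1% (KO a of the smaller). The difference of KO a from KO b was wider than that between the means of the sides for 57 of 76 members in the larger table and 66 of 72 in the smaller, against 60.9% and 61.1% of all genes.

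**Figure D2:**
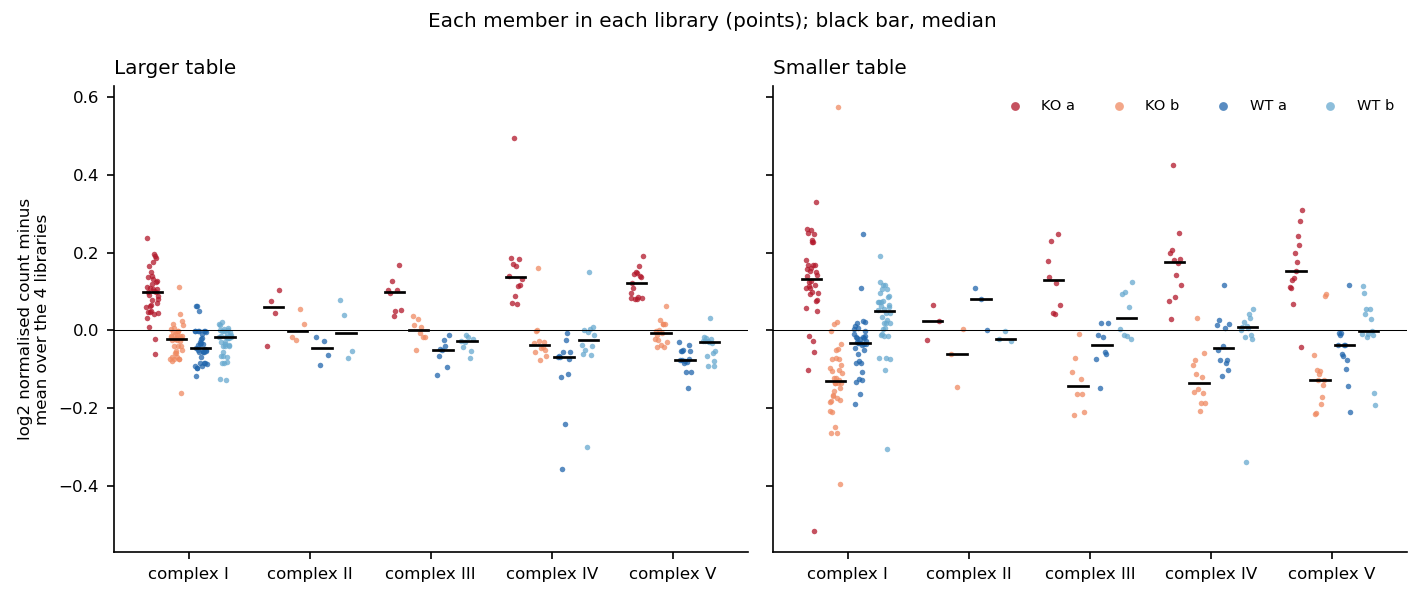
Deviation of each member (points) from its mean over the 4 libraries, as log2 normalised count, in KO a, KO b, WT a and WT b of the larger and the smaller table, by complex, with black bars for medians. Over all members KO a has the highest median in both tables, at 0.10 and 0.14, whereas KO b is at -0.02 in the larger table, with -0.13 in the smaller. Complex II differs, with a median of 0.08 in WT a and 0.02 in KO a of the smaller table (3 members). In the larger table KO a is highest for 2 of its 4 members.

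The members' median changed with the knockout library used. The median log2 ratio of KO over WT among members was 0.08 from all 4 libraries of the larger table, 0.02 without KO a and 0.15 without KO b. For the smaller table it was 0.00 from all 4 libraries, -0.12 without KO a and 0.12 without KO b. Members with every remaining knockout library above every remaining wild-type library numbered 37 without KO a and 71 without KO b in the larger table, against 32.9% and 36.8% of all genes, and 9 and 59 in the smaller, against 37.6% and 35.8%. Gene length moved with the same libraries. The shortest tercile of tested genes by exon length had median offsets of 0.04 in KO a and -0.02 in KO b of the larger table, and 0.03 and -0.06 in those of the smaller. Members had a median exon length of 1696.5 bases against 4149 for all genes tested in both tables. Kupffer markers were highest in WT a for 6 of 8 genes in the larger table, against 3257 of 13627 genes. In the smaller they were highest in WT b for 7 of 8, against 2681 of 11114 genes. All 4 tested erythroid markers, which are globin genes, were lower in both knockout than in both wild-type libraries in both tables. That was the case for 19.5% and 20.4% of all genes. The part of length, depth and these cells in the members' values was not tested.

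Complex I, the NADH dehydrogenase, held the only member with an unadjusted p under 0.05 in the larger table. Ndufa12 (ENSMUSG00000020022; chromosome 10, 94198720 to 94221443, plus strand), an accessory subunit of the peripheral arm, had 3090.1 and 2626 normalised counts in the knockout libraries of the larger table, against 2415 and 2399 in the wild-type libraries. Knockout libraries of the smaller table had 5063 and 4222 and the wild-type libraries 3704 and 4024. The sides did not overlap in either table, with 8.73% and 4.91% between the nearest libraries. Its log2 fold change (± SE) stood at 0.20 ± 0.10 in the larger of the authors' deposited tables and 0.21 ± 0.12 in the smaller, with adjusted p-values of 1.00 and 0.999. The lowest fold change of the complex in the deposited larger table was that of Ndufa3, another accessory subunit, at -0.03 ± 0.09.

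The core subunits of complex I carry the iron-sulfur clusters and the flavin. Ndufv1, which binds NADH and the flavin, had 9604 and 9475 counts in the knockout libraries of the larger table, against 8992 and 9223 in the wild-type libraries, and 13912 and 12630.2 against 13637 and 13621 in the smaller. Its deposited fold changes were 0.06 ± 0.08 and -0.03 ± 0.11. Ndufs7 and Ndufs8, iron-sulfur subunits near the ubiquinone site, had fold changes of 0.08 ± 0.09 and 0.02 ± 0.09 in the larger of the authors' deposited tables and -0.06 ± 0.11 and -0.04 ± 0.11 in the smaller. Their sides overlapped in both tables.

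Ndufs1, the largest iron-sulfur subunit of complex I, varied widely between libraries of one side in the smaller table. It had 171 and 365 normalised counts in the knockout libraries there, against 291 and 198 in the wild-type libraries, and KO b was the highest library, unlike for most members. In the larger table it had 1774 and 1999 in the knockout libraries and 1783 and 1859 in the wild-type libraries. Its log2 fold changes were 0.04 ± 0.10 and 0.05 ± 0.14 in the authors' deposited larger and smaller tables. Ndufa4, whose protein is now placed in complex IV, had 12852 and 11473 counts in the knockout libraries of the larger table, against 10916 and 11569 in the wild-type libraries. Its counts in the smaller table were not unique, and its deposited fold changes were 0.10 ± 0.09 and 0.07 ± 0.12. The related Ndufa4l2 was low, with 55.8 and 55.3 counts in the knockout libraries against 58.0 and 53.0 in the wild-type libraries of the larger table.

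Complex II, succinate dehydrogenase, is encoded entirely by nuclear genes and also serves the citric acid cycle. Its catalytic flavoprotein Sdha (ENSMUSG00000021577; chromosome 13, 74322254 to 74350280, minus strand) had 23067 and 23438 normalised counts in the knockout libraries of the larger table, against 23453 and 25038 in the wild-type libraries. Those of the smaller table had 27692 and 26978 in the knockout and 30338 and 27723 in the wild-type libraries. The knockout libraries lay below the wild-type libraries in both tables, by 0.0622% and 0.114% between the nearest libraries. The log2 fold changes of -0.05 ± 0.08 and -0.07 ± 0.11 in the authors' deposited tables were within their SE. Sdhb, the iron-sulfur subunit, had deposited fold changes of 0.04 ± 0.09 and -0.06 ± 0.11.

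The membrane anchors of complex II, Sdhc and Sdhd, bind ubiquinone. Sdhd had 14034 and 13192 normalised counts in the knockout libraries of the larger table, against 12484 and 12572 in the wild-type libraries, without overlap. It had the highest fold change of the complex in both deposited tables, 0.10 ± 0.08 and 0.12 ± 0.11, and its counts in the smaller table were not unique. Sdhc had 8913 and 8984 counts in the knockout libraries of the larger table, against 8473 and 8222 in the wild-type libraries. For Sdhc, KO b was not below KO a in that table. Its knockout libraries had 12392 and 12213 counts in the smaller table, against 12203 and 11973 in the wild-type libraries, with a gap of 0.0811% between the sides.

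Complex III, the cytochrome bc1 complex, had 6 of 8 members with both knockout libraries above both wild-type libraries in the larger table and 1 of 8 in the smaller. The shares over all genes were 18.1% and 18.5%. Uqcrh, the hinge subunit beside cytochrome c1, had 6991 and 6149.8 normalised counts in the knockout libraries of the larger table, against 5831 and 5998 in the wild-type libraries. In the smaller table it had 15876 and 11928 in the knockout libraries and 12803 and 13145 in the wild-type libraries, so that the knockout libraries enclosed the others. Its fold change was the highest of the complex in the authors' deposited larger table (0.13 ± 0.09), and that of Uqcrb, a subunit at the ubiquinone site, in the smaller (0.13 ± 0.12). Uqcrfs1, the Rieske iron-sulfur protein, had 13602 and 12715 counts in the knockout libraries of the larger table, against 12295 and 12043 in the wild-type libraries, and 32597 and 27452 against 28793 and 31194 in the smaller.

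The core protein Uqcrc1 had 11478 and 11416 normalised counts in the knockout libraries of the larger table, against 10801 and 11098 in the wild-type libraries. In the smaller table, 16011 and 13851 in the knockout libraries stood against 15728 and 16623 in the wild-type libraries, and the sides overlapped. Uqcrq, a small subunit beside cytochrome b, had the lowest fold change of the complex in both deposited tables, 0.03 ± 0.08 and -0.11 ± 0.11. The smaller table gave 29287 and 24198 counts in the knockout libraries, against 28318 and 30513 in the wild-type libraries.

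Complex IV, cytochrome c oxidase, had the widest step between KO a and KO b of the 5 complexes in the larger table. Its median member lay at 0.14 in KO a and -0.04 in KO b there on the log2 offset scale, and at 0.18 and -0.14 in the smaller table. Cox6b1, which faces cytochrome c, had 9996 and 8897 normalised counts in the knockout libraries of the larger table, against 8179 and 8573 in the wild-type libraries. The smaller table gave 22753 and 18246 in the knockout libraries and 18701 and 19468 in the wild-type libraries. The deposited fold changes of Cox6b1 were 0.15 ± 0.09 and 0.08 ± 0.11. Cox5a and Cox5b, which cover the matrix side of the enzyme, had 0.09 ± 0.09 and 0.11 ± 0.09 in the larger of the authors' deposited tables and -0.01 ± 0.11 and 0.04 ± 0.12 in the smaller.

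**Figure D3:**
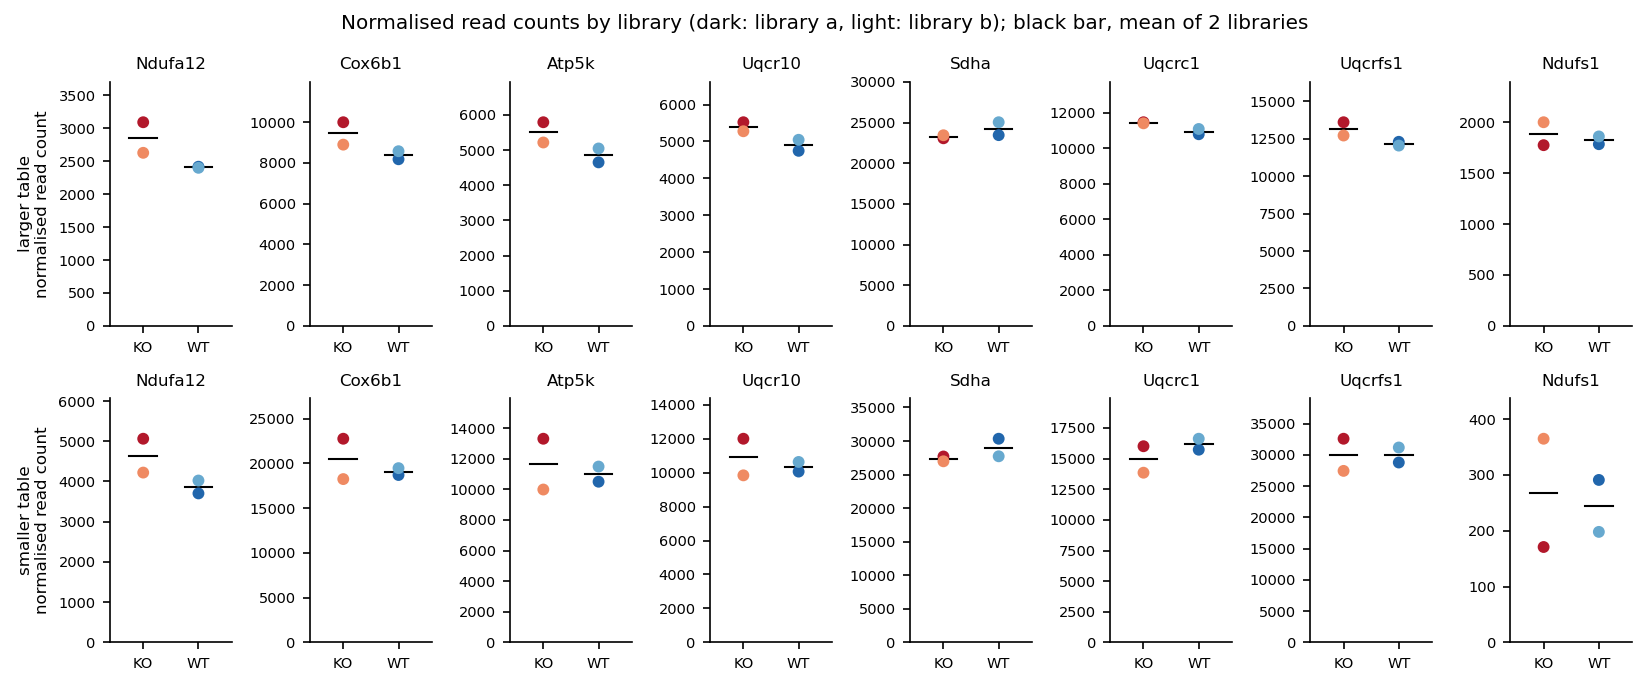
Normalised read counts of 8 members in the knockout libraries (left of each panel) and the wild-type libraries (right), in the larger table (upper row) and the smaller table (lower row), with black bars for the mean of 2 libraries and axes from 0. Ndufa12 is above both wild-type libraries in both knockout libraries of both tables, whereas the knockout libraries of Cox6b1, Atp5k and Uqcr10 enclose the wild-type libraries in the smaller table.

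Several subunits of complex IV exist as isoforms made by different genes. Cox6b2, the testis isoform of Cox6b1, was low and had the highest fold change of the complex in both deposited tables, 0.20 ± 0.11 and 0.20 ± 0.14. It had 114 and 66 reads in the knockout libraries of the larger table, against 64 and 38 in the wild-type libraries, or 92.2 and 73.0 normalised counts against 50.9 and 53.0. In the smaller table it had 144 and 109.7 normalised counts in the knockout libraries, against 98.9 and 84.7 in the wild-type libraries, and the sides did not overlap in either. Its unadjusted p-values were 0.0716 and 0.157 in the authors' deposited tables. The liver isoforms Cox6a1, Cox7a2 and Cox8a had deposited fold changes of 0.06 ± 0.08, 0.02 ± 0.09 and 0.06 ± 0.09 in the larger table, with -0.04 ± 0.11, -0.03 ± 0.12 and -0.05 ± 0.11 in the smaller. Cox7a2 was the lowest of the complex in the larger table and Cox8a in the smaller. Cox7a1, the heart and muscle isoform, had 76.1 and 64.2 counts in the knockout libraries of the larger table, against 57.2 and 75.3 in the wild-type libraries.

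The remaining isoforms of complex IV were at or near the limit of detection. Cox4i2, the isoform typical of lung, had 1 and 8 reads in the knockout libraries of the larger table, against 3 and 1 in the wild-type libraries. Cox8b, a muscle isoform, had 3 and 5 reads against 9 and 1, and Cox7b2 had 8 and 1 against 4 and 0, in the same order. The ubiquitous Cox7b had 9416 and 8119.7 normalised counts in the knockout libraries of the larger table, against 7663 and 8059 in the wild-type libraries. Cox7a2l, which helps complexes III and IV to join into supercomplexes, had deposited fold changes of 0.06 ± 0.09 and 0.05 ± 0.12.

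Complex V, the ATP synthase, had the highest median fold change of the larger table (0.09, per the authors' deposited table), and all 15 of its members with unique counts were highest in KO a there. KO a was the highest library for 29.9% of all genes in that table. The catalytic head is built from Atp5a1 and Atp5b around the stalk subunit Atp5c1. Atp5a1 and Atp5b had deposited fold changes of 0.09 ± 0.08 and 0.06 ± 0.08 in the larger table, with 0.05 ± 0.10 and -0.03 ± 0.11 in the smaller, and their counts were not unique. Atp5c1 had 11584 and 10780.2 normalised counts in the knockout libraries of the larger table, against 10709 and 10731 in the wild-type libraries. Its fold change of 0.05 ± 0.08 was the lowest of complex V in the deposited larger table. Atp5d, the delta subunit of the same stalk, was the lowest in the smaller at -0.08 ± 0.12. It had 15001 and 14005 counts in the knockout libraries of the larger table, against 13299 and 13863 in the wild-type libraries, and 26759 and 21353 against 24717 and 26853 in the smaller.

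Subunit c of complex V, which forms the rotating ring in the membrane, is encoded by Atp5g1, Atp5g2 and Atp5g3, whose mature proteins are identical. Atp5g3 (ENSMUSG00000018770; chromosome 2, 73908447 to 73911326, minus strand) had 26555 and 24359 normalised counts in the knockout libraries of the larger table, against 22551 and 22452 in the wild-type libraries. The nearest libraries of the sides were 8.02% apart. It had the highest fold change of complex V in the authors' deposited larger table, 0.15 ± 0.08 (unadjusted p = 0.0654), and 0.06 ± 0.11 in the smaller, where its counts were not unique. Atp5g1 had 8811 and 7825 counts in the knockout libraries of the larger table, against 7671 and 7600.5 in the wild-type libraries, and Atp5g2 had 5836 and 5522 against 5331 and 5416. For Atp5g2, 40.2% of the 31-base words occur in another annotated gene, so its counts are uncertain.

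Atp5s, also known as coupling factor B, is named with complex V by its symbol although it is not a subunit of the purified enzyme. It had 564 and 485 normalised counts in the knockout libraries of the smaller table, against 393 and 398 in the wild-type libraries, with 21.8% between the nearest libraries. In the larger table it had 382 and 328 in the knockout libraries, against 310.1 and 322 in the wild-type libraries. The log2 fold change of Atp5s stood at 0.11 ± 0.12 in the larger of the authors' deposited tables and 0.28 ± 0.13 in the smaller, with adjusted p-values of 1.00 and 0.999.

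A gap of at least 5% between the nearest knockout and wild-type libraries, with the knockout higher, was found for 7 of 76 members in the larger table, against 8.89% of 13627 genes, and for 2 of 72 in the smaller, against 10.4% of 11114 genes. At this gap the members' count was close to the share of all genes in the larger table. In the larger table they were Cox6b2, Ndufa12, Atp5o, Atp5g3, Ndufa5, Atp5mpl and Sdhc, and in the smaller Atp5s and Cox6b2. The other members with non-overlapping sides above the wild type in the smaller table were Ndufa12, Ndufc2, Uqcrc2, Sdhc and Ndufv2, with gaps of 4.91%, 1.49%, 0.258%, 0.0811% and 0.0121%. Members named only in these lists were chosen after their values were seen.

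The fold changes of the larger table were set against those of the smaller by a test of the difference, larger minus smaller, per gene. No member passed (z test, Benjamini-Hochberg over 11604 genes), against 0.0172% of all genes, and none had an unadjusted p under 0.05, against 0.138%. The lowest unadjusted p among members was 0.258. The difference was above 0 for 69 of 78 members, against 48.7% of all genes, with a median of 0.05 on the log2 scale. By complex it was above 0 for 32 of 37, 3 of 4, 7 of 8, 11 of 12 and 16 of 17 members, with medians of 0.05, 0.04, 0.08, 0.06 and 0.06. The differences farthest from 0 in SE units were those of Atp5d (0.16, z = 1.13), Uqcrc1 (0.15, z = 1.10), Uqcr11 (0.15, z = 1.04) and Uqcrq (0.14, z = 1.02). Atp5s had the lowest difference, at -0.17 (z = -0.959). The test takes the tables as independent, and whether the same mice gave both is not stated in the labels. Its z values had an SD of 0.535 over all genes and 0.384 over members, below the SD of 1 of a calibrated test. The test was therefore conservative, and its lack of calls says little.

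The share of reads taken by the subunits differed between the tables. Listed members took 1.62% of all mean counts in the larger table, with 2.88% in the smaller, computed from the authors' deposited means. Their median level, as mean CPM per kilobase of exon, was 91.8 in the larger table, with 182 in the smaller, against 3.12 and 3.33 for all tested genes. The tables were normalised separately, so these levels compare shares and not amounts. The share of each gene in its table was lower in the larger table for 75 of 78 members, with a median ratio, larger over smaller, of 0.532, against 1.18 for all 11604 genes. By complex the median ratio was 0.538, 0.634, 0.478, 0.556 and 0.507 for complexes I to V. Assembly factors, which build the complexes, also had lower shares in the larger table for 31 of 40 genes (median ratio 0.790). So did 15 of 16 genes of mobile carriers and ubiquinone synthesis (0.781). Hepatocyte markers went the other way, with a median ratio of 1.54 and all 10 higher in the larger table. Kupffer markers had a ratio of 1.57 with all 8 higher, and endothelial and stellate markers 2.22 with 6 of 7 higher. Across genes, the ratio was higher for genes with longer exons, with a Spearman coefficient of 0.263 over 78 members and 0.252 over 11575 genes. These points share libraries and depth, so the coefficients are descriptions only.

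**Figure D4:**
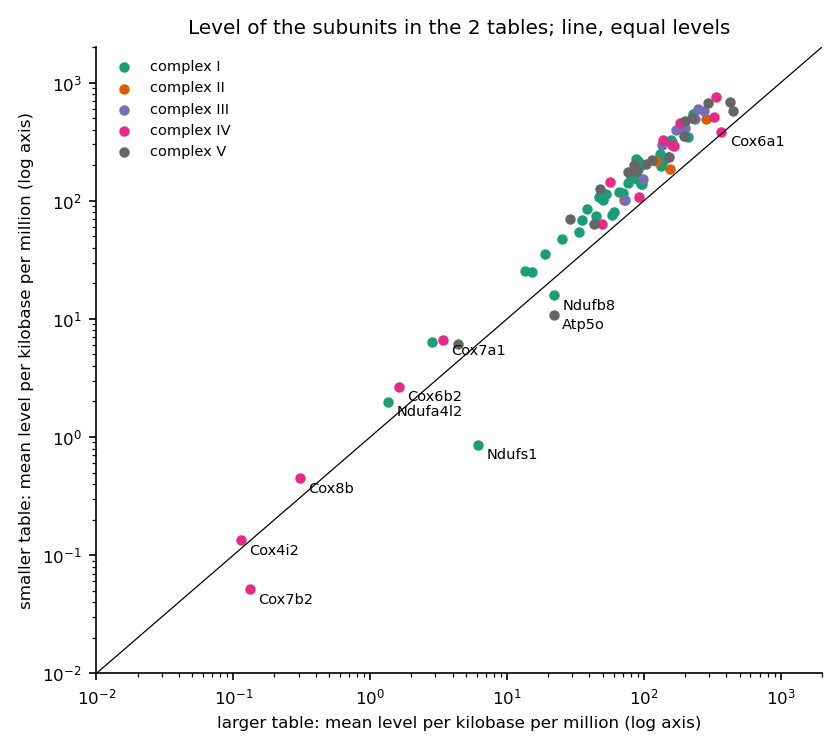
Level of each listed member in the larger table (x) and the smaller table (y), as mean CPM per kilobase of exon, on log axes, coloured by complex, with a line at equal levels. Most members lie above the line, and Ndufs1, Atp5o and Ndufb8 lie below it among tested members.

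The highest levels per kilobase of all exons together were those of complexes IV and V in the larger table, and of complexes III, IV and V in the smaller. In the larger table they were those of Atp5a1 (447), Atp5b (422), Cox6a1 (369), Cox6b1 (337) and Cox8a (327), and in the smaller those of Cox6b1 (759), Atp5b (679), Atp5g3 (676), Uqcrfs1 (597) and Atp5a1 (579). The order changed with the length used. Per kilobase of the longest transcript, the highest in the larger table were Atp5b (934), Atp5g3 (745) and Atp5a1 (524), and in the smaller Atp5g3 (1712), Atp5b (1501) and Cox6b1 (869). Liver isoforms stood far above the others of their family. Cox6b1 had a level of 337 per kilobase in the larger table and Cox6b2 one of 1.63, and Cox7a2 had 138 and Cox7a1 3.41. Among the genes for subunit c, the level per kilobase was highest for Atp5g3, at 294, with 88.3 for Atp5g2 and 43.5 for Atp5g1 in the larger table, and 676, 179.6 and 63.9 in the smaller. On the scale of mean counts, not divided by length, the order of Atp5g1 and Atp5g2 was reversed, with 7977 and 5527 in the larger table. The lengths used, all annotated exons together, were 4912 and 1675 bases.

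The exceptions were Ndufs1, Atp5o and Ndufb8, whose share was higher in the larger table. Ndufs1 had 49.6 CPM in the larger table, with 6.95 in the smaller, Atp5o 43.4 and 21.4, and Ndufb8 69.1 and 49.9. All of them overlap other annotated genes. Ndufs1 overlaps Eef1b2 and other genes on the opposite strand, Atp5o overlaps a read-through gene of the same name on its own strand, and Ndufb8 overlaps the read-through gene Gm20538. Among the 86 members, 12 overlap a gene on the same strand, 30 a gene on the other strand, and 10 share over 25% of their 31-base words with another gene. The counting tool and its strand setting are not given in the sources used, and their part in these levels was not tested.

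Genes that work beside the subunits had medians nearer 0 in the larger table. Of 47 assembly factors, which build the complexes, 41 were tested in the larger table, with 40 in the smaller, and 23 and 17 of them had fold changes above 0 with medians of 0.01 and -0.03 in the authors' deposited tables. None passed the authors' Wald test, and none had an unadjusted p under 0.05. On the log2 offset scale, assembly factors lay at 0.02 in KO a and 0.00 in KO b of the larger table, and at 0.02 and -0.06 in those of the smaller. Mobile carriers and enzymes of ubiquinone synthesis had 10 and 7 of 16 genes above 0, none of which passed over all genes. Cycs of this list, cytochrome c itself, had deposited fold changes of 0.23 ± 0.09 and 0.28 ± 0.11. Its unadjusted p-values in the authors' Wald test were 0.0156 and 0.0116, and its adjusted p-values 0.861 and 0.711.

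Of 12 transcriptional regulators of mitochondrial genes, 1 rose in each table and none fell. It was Ppargc1a, the coactivator PGC-1α that raises mitochondrial gene expression. Ppargc1a had 786 and 639.7 normalised counts in the knockout libraries of the larger table, against 384 and 454 in the wild-type libraries. Its counts in the smaller table were 646 and 539.9 in the knockout libraries and 310.5 and 275 in the wild-type libraries. Its log2 fold change stood at 0.51 ± 0.12 in the larger of the authors' deposited tables and 0.67 ± 0.13 in the smaller (Wald test, adjusted p = 0.00648 and 0.000667). Both knockout libraries were far above both wild-type libraries in each table, with KO a above KO b. On the log2 offset scale, the median subunit was also highest in KO a in both tables. Its values in KO a, KO b, WT a and WT b were 0.10, -0.02, -0.05 and -0.03 in the larger table. The smaller table had 0.14, -0.13, -0.03 and 0.02 in the same order. A link between Ppargc1a and the subunits was not tested. The other regulators did not pass, among them Gabpa, a subunit of GABP, at 0.13 ± 0.10 and 0.28 ± 0.12, Nrf1 at -0.01 ± 0.12 and -0.10 ± 0.14, Esrra at -0.02 ± 0.09 and -0.11 ± 0.12 and Tfam at -0.03 ± 0.10 and 0.04 ± 0.12 in the authors' deposited tables.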

How the data were processed

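Values come from 2 tables of the authors' genotype comparison. The submitters' processing notes name STAR 2.3.0e, DESeq2 1.6.3 and the genome build mm10 but not what each was used for, and the annotation and counting tool are not given in the sources used. Per the file headers, the authors deposited for each gene a mean signal (normalised counts averaged over libraries), a log2 fold change, its SE on the log2 scale, a Wald score, a p-value and an adjusted p-value. The headers name neither the groups nor the libraries. Calls are those of the authors' DESeq2 Wald test at an adjusted p of 0.05.

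The design asked for library values if they could be had as whole reads, and they were computed from the deposited values. A deposited mean is a whole-number combination of 4 single-read steps, each 1 read over 4 size factors. Candidate counts for each gene were kept when a negative binomial fit with the normal prior, at the dispersion that returned the deposited SE, returned the deposited log2 fold change within 1e-06. Genes with a mean up to 10000 and all members were tried. Library values got no test across genes. Deviations used log2 of the normalised count plus 0.5. Libraries of a group may be technical replicates, and p-values measure only their spread.

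The difference between tables was a z test over both SEs. Names, exons and overlaps came from GENCODE mouse release M21 (GRCm38), and promoter windows from RefSeq. Python 3.11.15, numpy 2.4.6, pandas 2.3.3, scipy 1.17.1 and matplotlib 3.10.9 were used. Named with values are the highest and lowest member of each complex and table, the 5 largest differences between tables, the 5 highest levels per table, fixed core subunits and isoform families, called genes of the other lists and Cycs. The values of 1 member that these rules name are not reported here. Members, lists and tests were chosen with earlier results of these data known.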

Additional observations from a re-analysis of the deposited data

How the results depend on the processing

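The count of 0 members past the test held in both tables with no filter on the mean, with a mean of at least 100 counts and without genes that share over 25% of their words, and for the difference between tables with z values scaled to an SD of 1 and with all genes. The median fold changes moved by less than 0.01 with centring, all listed members or no shared words, and the median difference by less than 0.01 with centring. Members with both knockout libraries above both wild-type libraries numbered 35 and 7 in the larger and smaller table, against 18.1% and 18.5% of all genes. With a gap of at least 5% they numbered 7 and 2, against 8.89% and 10.4%. When single libraries were left out, they numbered between 37 and 71 in the larger table, against 31.9% to 36.8% of all genes. In the smaller table they then numbered between 9 and 59, against 29.8% to 37.6%. The cause was not tested, and both alternatives, the gap and leaving out libraries, were chosen after seeing the data. The highest counts came without KO b in both tables. Leaving out single libraries, the larger table's median log2 ratio lay between 0.02 and 0.15, and the smaller table's between -0.12 and 0.12. With the longest transcript as length, the median level per kilobase was 140 in the larger table, with 247 in the smaller, since that length is shorter than all exons together, and the order of the highest members changed. No paired analysis was possible because the recovered libraries carry no sample name or replicate number.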
